A study of Mus musculus with 12 samples.

Results

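The genes described here are 10 that act in the sensing of foreign or misplaced nucleic acid: the cytosolic RNA helicases Ddx58, Ifih1, Dhx58 and Ddx60, the endosomal receptor Tlr3, the Z-form nucleic acid receptor Zbp1, the double-stranded RNA binding enzymes Eif2ak2 and Adar, and the adaptor Mavs with the kinase Tbk1. They were chosen by gene symbol, 10 of the 18193 genes with a probe set of their own on the array, and were read by 23 of its 45101 probe sets. For each gene the probe set with the highest mean over all 12 arrays is reported, and the others serve as a check. All 10 genes passed the filter on low signals, which asks for a signal of 100 on at least 4 arrays. Zbp1 passed it only through its tmTNF arrays.

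Endothelial cells of newborn wild-type mice were cultured, and the RNA of each of 12 samples was hybridised to its own Affymetrix mouse array. Per the labels, the cells of 4 samples were stably transfected with a mutant of murine TNF that cannot be cleaved and stays in the membrane (tmTNF, constant exposure). Another 4 samples received soluble TNF for 4 h at a dose of 20 ng/ml (brief exposure), and 4 were mock-transfected controls, the comparator of both. All cells were grown in DMEM with serum, glutamine and antibiotics, and each hybridisation took about 5 micrograms of total RNA. The promoter of the tmTNF construct, and whether the transfected cells were 1 clone, are not given in the sources used here. The Tnf probe set read 13.8, 10.0, 77.2 and 62.1 in tmTNF cells, 6.2, 8.0, 6.5 and 14.3 under soluble TNF and 7.4, 7.3, 20.9 and 25.7 in control, all under 100. Whether it covers the construct is not given either, so Tnf checks neither the transfection nor the labels. Replicate numbers were given here in accession order, name single arrays and pair none. The samples are not stated to be separate cultures or animals, and p-values here reflect the spread among these arrays alone. What gave that spread is not stated, and cell-type markers differed widely within groups. In control the summed signal of endothelial markers ran from 12494 to 94563. The comparisons of tmTNF and of soluble TNF with control share the same 4 control arrays.

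Ddx58 (RIG-I) and Ifih1 (MDA5) recognise viral RNA in the cytosol and pass the signal to Mavs on mitochondria, from which Tbk1 and Ikbke phosphorylate Irf3 and Irf7 to switch on type I interferon genes. Tlr3 reports double-stranded RNA from endosomes through Ticam1 to the same kinases, while Eif2ak2 (PKR) halts translation on double-stranded RNA and Zbp1 can start Ripk3-dependent cell death. Most of these sensors are themselves interferon-induced through the factor ISGF3, which binds the interferon-stimulated response element (ISRE), so interferon raises the capacity of a cell to sense nucleic acid.

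A promoter window of every matched gene is shown, whether or not it passed a test, so that motif matches can be set side by side. For Adar, which has 3 windows, the shown window is the only 1 that held a match to any motif searched. RefSeq promoter windows, from 250 bases before to 50 bases after the annotated start (build GRCm38.p6), were matched for 8 of the 10 genes (10 windows). Zbp1 and Dhx58 were not matched. The windows below are of Ddx60 (chr8:61927837-61928136, plus strand), Ifih1 (chr2:62646206-62646505, minus), Ddx58 (chr4:40239776-40240075, minus), Eif2ak2 (chr17:78882523-78882822, minus), 1 of 3 windows of Adar (chr3:89730468-89730767, plus), Tlr3 (chr8:45410331-45410630, minus), Mavs (chr2:131233813-131234112, plus) and Tbk1 (chr10:121586745-121587044, minus). Each runs 5′ to 3′ on the strand of the gene, and capitals mark a match to the ISRE core on either strand, with 2 bases or 1 base between its GAAA repeats.
Ddx60: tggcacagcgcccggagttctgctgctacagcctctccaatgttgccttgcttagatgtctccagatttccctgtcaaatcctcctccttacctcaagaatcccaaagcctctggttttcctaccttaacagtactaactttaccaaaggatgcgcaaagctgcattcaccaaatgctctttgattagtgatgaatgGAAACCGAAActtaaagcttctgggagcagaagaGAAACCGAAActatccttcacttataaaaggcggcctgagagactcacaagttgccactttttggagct
Ifih1: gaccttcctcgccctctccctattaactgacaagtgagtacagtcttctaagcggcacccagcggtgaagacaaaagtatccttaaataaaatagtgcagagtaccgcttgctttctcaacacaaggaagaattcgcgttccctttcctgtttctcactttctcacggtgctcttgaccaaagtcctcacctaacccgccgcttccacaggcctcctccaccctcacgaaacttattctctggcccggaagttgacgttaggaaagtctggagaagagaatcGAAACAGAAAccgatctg
Ddx58: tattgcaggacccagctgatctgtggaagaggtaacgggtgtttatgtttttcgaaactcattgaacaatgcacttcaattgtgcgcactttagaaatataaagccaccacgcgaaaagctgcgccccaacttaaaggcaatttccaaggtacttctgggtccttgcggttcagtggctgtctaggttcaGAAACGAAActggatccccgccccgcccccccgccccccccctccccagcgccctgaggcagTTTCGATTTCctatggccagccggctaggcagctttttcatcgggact
Eif2ak2: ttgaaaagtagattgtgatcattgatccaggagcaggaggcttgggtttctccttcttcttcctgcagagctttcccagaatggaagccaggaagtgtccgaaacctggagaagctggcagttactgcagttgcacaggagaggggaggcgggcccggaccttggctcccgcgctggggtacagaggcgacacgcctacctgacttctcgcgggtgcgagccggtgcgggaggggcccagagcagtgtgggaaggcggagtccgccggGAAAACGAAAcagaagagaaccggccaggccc
Adar: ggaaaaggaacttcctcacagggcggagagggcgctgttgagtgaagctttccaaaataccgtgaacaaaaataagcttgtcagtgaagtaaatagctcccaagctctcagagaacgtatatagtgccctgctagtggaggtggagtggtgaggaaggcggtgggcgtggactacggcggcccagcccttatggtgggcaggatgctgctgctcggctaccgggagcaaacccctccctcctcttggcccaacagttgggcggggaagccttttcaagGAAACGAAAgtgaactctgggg
Tlr3: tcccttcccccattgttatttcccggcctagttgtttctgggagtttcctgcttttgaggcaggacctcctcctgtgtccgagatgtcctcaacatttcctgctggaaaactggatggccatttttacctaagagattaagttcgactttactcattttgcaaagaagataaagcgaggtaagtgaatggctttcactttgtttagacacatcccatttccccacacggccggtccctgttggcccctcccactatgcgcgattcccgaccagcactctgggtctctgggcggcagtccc
Mavs: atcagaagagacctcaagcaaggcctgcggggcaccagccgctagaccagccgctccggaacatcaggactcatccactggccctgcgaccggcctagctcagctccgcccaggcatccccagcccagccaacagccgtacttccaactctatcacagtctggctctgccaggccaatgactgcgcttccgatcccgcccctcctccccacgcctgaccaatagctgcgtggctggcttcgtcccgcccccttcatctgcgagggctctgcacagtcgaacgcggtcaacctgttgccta
Tbk1: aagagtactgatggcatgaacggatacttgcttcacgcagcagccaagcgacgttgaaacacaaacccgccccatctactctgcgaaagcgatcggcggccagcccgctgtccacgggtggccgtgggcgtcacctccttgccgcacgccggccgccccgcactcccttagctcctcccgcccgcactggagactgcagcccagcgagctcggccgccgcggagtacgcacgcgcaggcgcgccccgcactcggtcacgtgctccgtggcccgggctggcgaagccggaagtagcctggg

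The ISRE core, taken as GAAA, any 2 bases and GAAA and searched on both strands as were the other motifs, was found in 4 of the 8 genes with a window, Ddx58, Ddx60, Eif2ak2 and Ifih1. It is in 3.44% of all 32851 windows of the table and in 3.99% of its 27025 genes. Ddx60 held it at -53 to -44 and again at -19 to -10 from the start, Ifih1 at 33 to 42, Eif2ak2 at 19 to 28, and Ddx58 on the opposite strand at 3 to 12. A form with 1 base between the GAAA repeats was added after the sequences had been seen. It was in the shown window of Adar and in Ddx58, and in 3.17% of all windows and 3.70% of all genes. The other Adar windows held no match to this or any other motif searched, and a gene with more windows has more chances of a match.

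The core of the interferon-gamma activated site, taken as TTC, any 3 bases and GAA, was found in Adar and Eif2ak2. It was in 8.30% of all windows and 9.55% of all genes. The match in Adar (23 to 31) overlapped that of the spaced GAAA pair (29 to 37). The kappaB core, which NF-kappaB binds, taken as GGGA, any 2 bases and TTCC, was found in Tlr3 at -211 to -202. It was in 1.47% of all windows and 1.63% of all genes. The windows of Mavs and Tbk1 held no match to any of these 4 motifs. A match describes the letters of the window and is not evidence that a factor binds there.

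A signal of 100 was reached by 17652 to 19174 probe sets on each array. All 12 endothelial markers were measured, with a summed signal of 19990 to 106476 on tmTNF arrays, 22631 to 58501 on soluble TNF arrays and 12494 to 94563 on control arrays. The lowest endothelial scores were those of control replicate 3 and tmTNF replicates 2 and 4. Of 8 fibroblast markers 6 reached 100 on some array, with sums of 280 to 8454 in tmTNF, 168.7 to 8168 in soluble TNF and 285.1 to 10016 in control. Of 9 leukocyte markers 3 reached 100 (Cd68, Csf1r and Laptm5), with sums of 508 to 7173, 464.5 to 585.9 and 607.4 to 18696 in the same group order, and Ptprc, which marks all leukocytes, stayed under 100 on every array. Smooth muscle markers, of which 2 of 4 reached 100, had sums of 164.8 to 293.7 in tmTNF, 791.2 to 1761.9 in soluble TNF and 111.4 to 1079.7 in control, so the soluble TNF arrays lay above all tmTNF arrays. Mesothelial markers, 2 of 5 reaching 100, had sums of 170.8 to 14061.3, 405.3 to 4390.4 and 331.6 to 10589.9 in the same group order. Epithelial markers, 2 of 3 reaching 100, had sums of 58.5 to 267.2, 66.1 to 136.4 and 134.8 to 206.3 in that order. The Y-linked genes had sums of 968.4 to 2508 on tmTNF arrays, 21.8 to 57.4 on soluble TNF arrays and 17.6 to 87.2 on control arrays, so this difference and the tmTNF transfection cannot be told apart. The Actb 3′ to 5′ signal ratio, a measure of RNA integrity, was 1.12 to 1.29 in tmTNF, 1.10 to 1.16 in soluble TNF and 1.18 to 1.29 in control. The signal of the 18S ribosomal RNA control probe set was 455.9 to 684.8 in tmTNF, 402.3 to 718.8 in soluble TNF and 261.9 to 465.8 in control. Whether cell origin, culture composition or RNA integrity has a part in the differences below was not tested, beyond the value without the 3 arrays of lowest endothelial score. In bulk cultures fewer cells of a type and less RNA per cell cannot be told apart.

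In tmTNF cells 3 of the 10 genes rose against control after Benjamini-Hochberg adjustment over 10269 genes (limma): Ddx60, Ddx58 and Zbp1, the last of which passed the filter only through tmTNF arrays. Of all genes tested 0.185% rose. For 8 of the 10, all but Mavs and Tbk1, every tmTNF array lay above every control array, which held for 2.19% of all genes, and the same 8 had an unadjusted p under 0.05, against 4.81% of all genes. The log2 fold changes of the 10 genes had a median of 1.62, against 0.03 over all genes. Under soluble TNF none of the 10 passed in limma, 0 had an unadjusted p under 0.05 and 0 were separated from control (of all genes, 0.039% were called, 5.4% and 7.28% had an unadjusted p under 0.05 as higher and lower, and 3.67% and 4.44% lay wholly above and below control). The median over the 10 genes there was -0.15, against -0.05 over all genes.

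**Figure D1:**
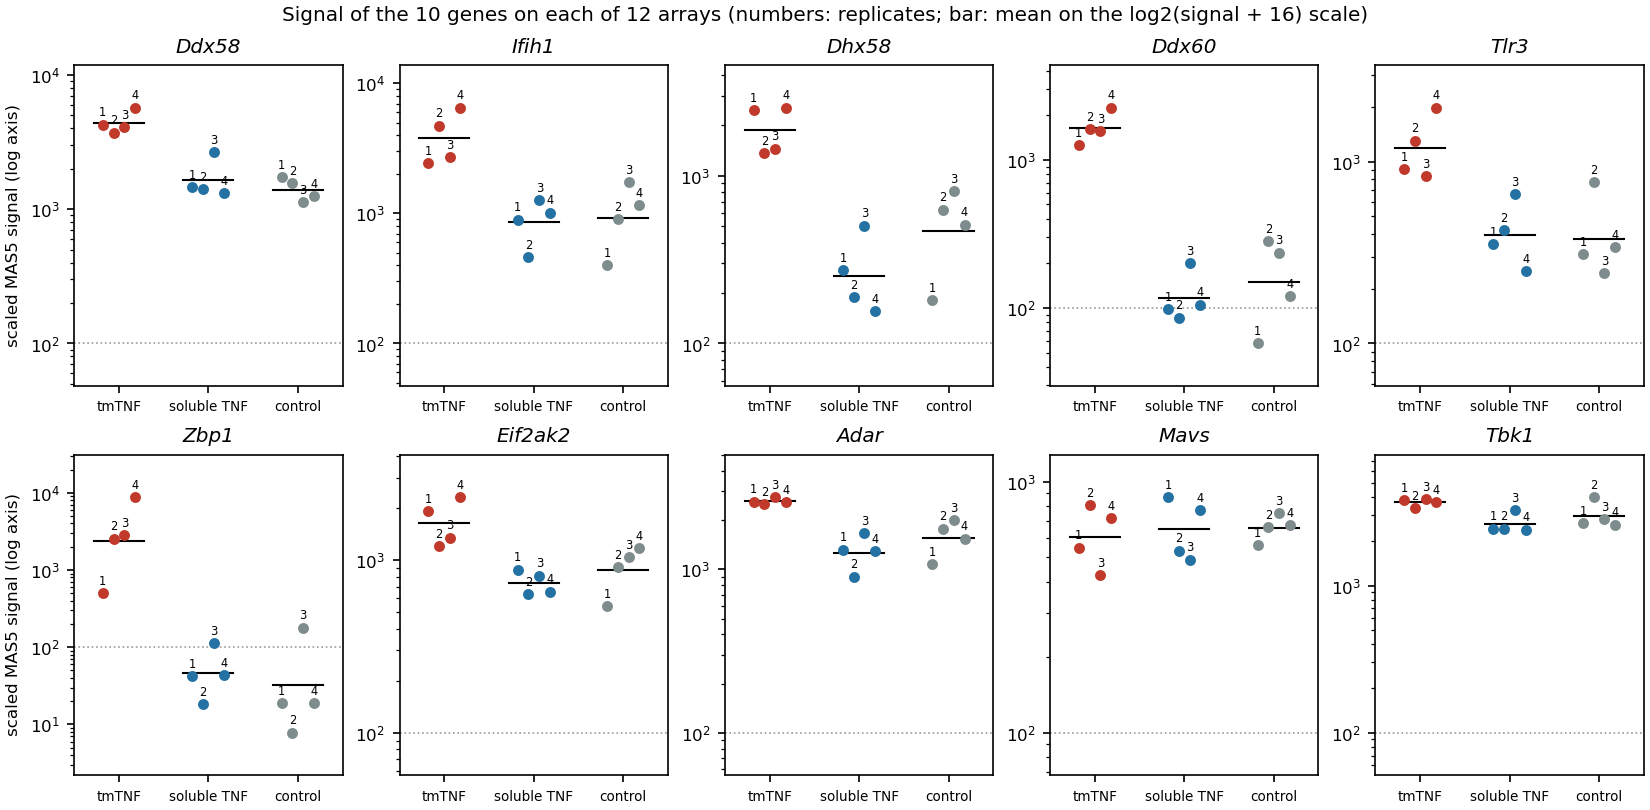
Scaled MAS5 signal of each of the 10 genes (log axis, separate for each panel) on 4 tmTNF, 4 soluble TNF and 4 control arrays. Points are arrays with their replicate number, bars are group means on the log2(signal + 16) scale, and the dotted line is a signal of 100. In 8 panels all tmTNF points lie above all control points, while the points of Mavs overlap in all 3 groups and those of Tbk1 overlap between tmTNF and control.

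Among the cytosolic RNA helicases, Ddx58, the receptor for short RNA with triphosphate ends, gave signals of 4264.8, 3712.0, 4092.9 and 5703.9 in tmTNF cells, 1459.6, 1417.9, 2662.5 and 1310.0 under soluble TNF, and 1736.6, 1558.8, 1132.3 and 1246.9 in control cells. The tmTNF arrays lay above all 8 others, and soluble TNF replicate 3 was the highest of the rest. Ddx58 was 3.11-fold higher in tmTNF than in control (log2 1.64 ± 0.25, SE, adjusted p = 0.0162), and the log2 difference of soluble TNF from control was 0.23 ± 0.25 (adjusted p = 0.743). The call of Ddx58 was lost without control replicate 4 (adjusted p = 0.0688), without tmTNF replicate 4 (adjusted p = 0.0805) and with arrays scaled to the same median (adjusted p = 0.0559).

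Ifih1, the receptor for long double-stranded RNA, had signals of 2424.5, 4736.3, 2712.0 and 6502.3 in tmTNF cells, 893.0, 461.3, 1257.6 and 1015.2 under soluble TNF and 400.8, 904.1, 1742.2 and 1163.7 in control. All tmTNF arrays were above the others, but the controls alone spread from 400.8 to 1742.2. The log2 difference of Ifih1 was 2.00 ± 0.47 for tmTNF minus control, which did not pass (adjusted p = 0.144), and -0.12 ± 0.47 for soluble TNF minus control (adjusted p = 0.938).

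Dhx58 (LGP2) lacks the signalling domains of Ddx58 and Ifih1 and tunes their activity. Its signals were 2459.9, 1368.9, 1452.4 and 2549.1 in tmTNF cells, 273.4, 189.0, 504.9 and 155.5 under soluble TNF and 181.2, 627.2, 811.3 and 511.4 in control. Every tmTNF array exceeded every other array, and the soluble TNF arrays overlapped the lower part of the control range. The log2 difference was 1.97 ± 0.46 for tmTNF minus control (adjusted p = 0.150) and -0.85 ± 0.46 for soluble TNF minus control (adjusted p = 0.470, 95% interval -1.85 to 0.16), and neither passed.

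Ddx60, a helicase described as a cofactor of the RIG-I-like receptors, read 1250.4, 1605.8, 1566.3 and 2246.9 in tmTNF cells, 98.2, 86.2, 201.6 and 105.3 under soluble TNF, and 57.6, 281.2, 236.0 and 119.8 in control. It reached 100 on all 4 tmTNF arrays, on 2 of 4 soluble TNF arrays and on 3 of 4 control arrays. Ddx60 was 9.96-fold higher in tmTNF than in control (log2 3.32 ± 0.42, adjusted p = 0.00461), and this call held with each of the 12 arrays left out in turn. With control signals under 100 set to 100, Ddx60 was at least 8.89-fold higher. For soluble TNF minus control its log2 value was -0.32 ± 0.42 (adjusted p = 0.785).

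Tlr3, the endosomal receptor, had signals of 907.2, 1303.8, 829.8 and 1976.3 in tmTNF cells, 350.3, 420.2, 660.2 and 249.6 under soluble TNF and 310.6, 766.9, 243.3 and 339.5 in control. The groups of tmTNF and control were separated by the narrow gap between 829.8 and 766.9. The log2 difference was 1.61 ± 0.40 for tmTNF minus control (adjusted p = 0.190) and 0.07 ± 0.40 for soluble TNF minus control (adjusted p = 0.961), so Tlr3 passed in neither.

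Zbp1 senses Z-form nucleic acid and links it to necroptosis. Its signals were 496.4, 2538.6, 2818.9 and 8831.1 in tmTNF cells, 42.5, 18.2, 111.9 and 43.3 under soluble TNF, and 19.0, 7.8, 178.7 and 18.7 in control. It reached 100 on all 4 tmTNF arrays and on 1 of 4 arrays in each of the other groups, and the tmTNF arrays themselves spanned the widest range of the 10 genes (SD of 1.69 on the log2 scale). The log2 difference for tmTNF minus control was 5.62 ± 0.83 (95% interval 3.80 to 7.44, adjusted p = 0.0134), a size that rests on control signals mostly below 100 and is no measured fold, and that for soluble TNF minus control was 0.36 ± 0.83 (95% interval -1.46 to 2.18, adjusted p = 0.888). With signals under 100 set to 100, Zbp1 was at least 18.1-fold higher in tmTNF than in control and at least 20.1-fold higher than under soluble TNF. A gene that passes the filter only through tmTNF arrays has to be higher there, and with no filter Zbp1 also passed the test (adjusted p = 0.015). The tmTNF call of Zbp1 was lost without control replicate 4 (adjusted p = 0.0619), without tmTNF replicate 2 (adjusted p = 0.0577) and with a model of tmTNF and control alone (adjusted p = 0.0649).

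Eif2ak2, the kinase that phosphorylates eIF2alpha, gave 1908.2, 1205.8, 1346.7 and 2316.3 in tmTNF cells, 880.0, 633.1, 811.5 and 654.4 under soluble TNF, and 537.9, 910.6, 1041.6 and 1165.9 in control. Its lowest tmTNF array was only just above its highest control array. The log2 difference was 0.89 ± 0.28 for tmTNF minus control (adjusted p = 0.395) and -0.25 ± 0.28 for soluble TNF minus control (adjusted p = 0.749).

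Adar, which edits adenosine to inosine in double-stranded RNA and so keeps self RNA from being sensed, gave 2595.5, 2499.7, 2777.2 and 2588.7 in tmTNF cells, 1321.3, 904.3, 1661.4 and 1297.0 under soluble TNF, and 1075.7, 1779.4, 2010.4 and 1539.3 in control. The 4 tmTNF arrays were close together (SD of 0.06 on the log2 scale). The log2 difference of Adar was 0.74 ± 0.23 for tmTNF minus control (adjusted p = 0.373) and -0.30 ± 0.23 for soluble TNF minus control (adjusted p = 0.615), and neither passed.

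Mavs, the adaptor on which Ddx58 and Ifih1 converge, had signals of 546.4, 807.9, 423.6 and 716.0 in tmTNF cells, 870.8, 532.5, 490.0 and 771.1 under soluble TNF and 558.6, 659.7, 751.8 and 670.4 in control, and all 3 groups overlapped. The log2 difference was -0.11 ± 0.25 for tmTNF minus control (95% interval -0.67 to 0.44, adjusted p = 0.959) and -0.02 ± 0.25 for soluble TNF minus control (95% interval -0.57 to 0.54, adjusted p = 0.986).

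Tbk1, the kinase downstream of Mavs, Ticam1 and Sting1, read 3798.4, 3367.3, 3842.3 and 3669.4 in tmTNF cells, 2437.3, 2426.7, 3259.0 and 2399.2 under soluble TNF and 2652.6, 3995.5, 2812.9 and 2584.5 in control. Control replicate 2 was its highest array of all 12, so tmTNF and control overlapped, while every tmTNF array lay above every soluble TNF array. The log2 difference of Tbk1 was 0.31 ± 0.18 for tmTNF minus control (95% interval -0.09 to 0.70, adjusted p = 0.786) and -0.18 ± 0.18 for soluble TNF minus control (95% interval -0.58 to 0.21, adjusted p = 0.700).

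The direct comparison, tmTNF minus soluble TNF, asks where these groups part. They differ in the form of TNF, in the length of exposure and in the stable transfection. Their Y-linked sums also differ (968.4 to 2508 against 21.8 to 57.4), and these differences cannot be told apart here. Here 4 of the 10 genes rose, Ddx60, Zbp1, Dhx58 and Ddx58, where 0.954% of all genes rose and 0.263% fell, and none of the 10 fell. The tmTNF arrays lay wholly above the soluble TNF arrays for 9 of the 10 genes, all but Mavs (10.3% of all genes), and the same 9 had an unadjusted p under 0.05 (12.4% of all genes). Zbp1 is in each of these counts, and it passed the filter only through tmTNF arrays, so it had to be higher there. The median log2 difference was 1.48, against 0.08 over all genes. The difference between the tmTNF and soluble TNF groups was thus tested directly, and does not rest on which of them passed against control.

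Ddx60 was 12.4-fold higher in tmTNF than in soluble TNF cells (log2 3.64 ± 0.42, adjusted p = 0.00159) and Dhx58 was 7.03-fold higher (2.81 ± 0.46, adjusted p = 0.0164). The log2 difference was 5.26 ± 0.83 for Zbp1 (adjusted p = 0.0126; with no filter 0.0156), where again 3 of 4 soluble TNF signals were under 100, and 1.41 ± 0.25 for Ddx58 (adjusted p = 0.0237). The Ddx58 call was lost in 6 of 12 fits with 1 array left out, those without tmTNF replicate 2, 3 or 4 or soluble TNF replicate 1, 2 or 4 (adjusted p of 0.0545 to 0.0957). That of Zbp1 was lost without tmTNF replicate 2 or soluble TNF replicate 2 (0.0552 and 0.0594) and that of Dhx58 without soluble TNF replicate 2 (0.0709), while Ddx60 passed in all 12. Dhx58 thus passed here and not against control. Its soluble TNF signals were 155.5 to 504.9, against 181.2 to 811.3 in control. For soluble TNF minus control its other fitted probe set was at -0.12 ± 0.46, against -0.85 ± 0.46 for the reported one. That other probe set likewise passed against soluble TNF (adjusted p = 0.0419) and not against control (adjusted p = 0.121).

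Another 4 genes came near the threshold without passing it: Ifih1 at 2.12 ± 0.47 (adjusted p = 0.0505), Adar at 1.04 ± 0.23 (adjusted p = 0.0554), Eif2ak2 at 1.13 ± 0.28 (adjusted p = 0.0703) and Tlr3 at 1.54 ± 0.40 (adjusted p = 0.0772). Tbk1 was at 0.49 ± 0.18 (adjusted p = 0.174) and Mavs at -0.09 ± 0.25 (adjusted p = 0.867, 95% interval -0.65 to 0.46). Without soluble TNF replicate 2 Ddx60 was the 1 gene of the 10 that passed, without tmTNF replicate 2 Ddx60 and Dhx58 passed, and without control replicate 1, which enters only the shared estimate of the spread, 7 passed. With tmTNF and soluble TNF alone in the model 8 passed. In these fits, in the same order, 26, 28, 166 and 310 of all 10269 genes rose, against 98 in the model as reported. The calls over all genes thus changed along with those of the 10.

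**Figure D2:**
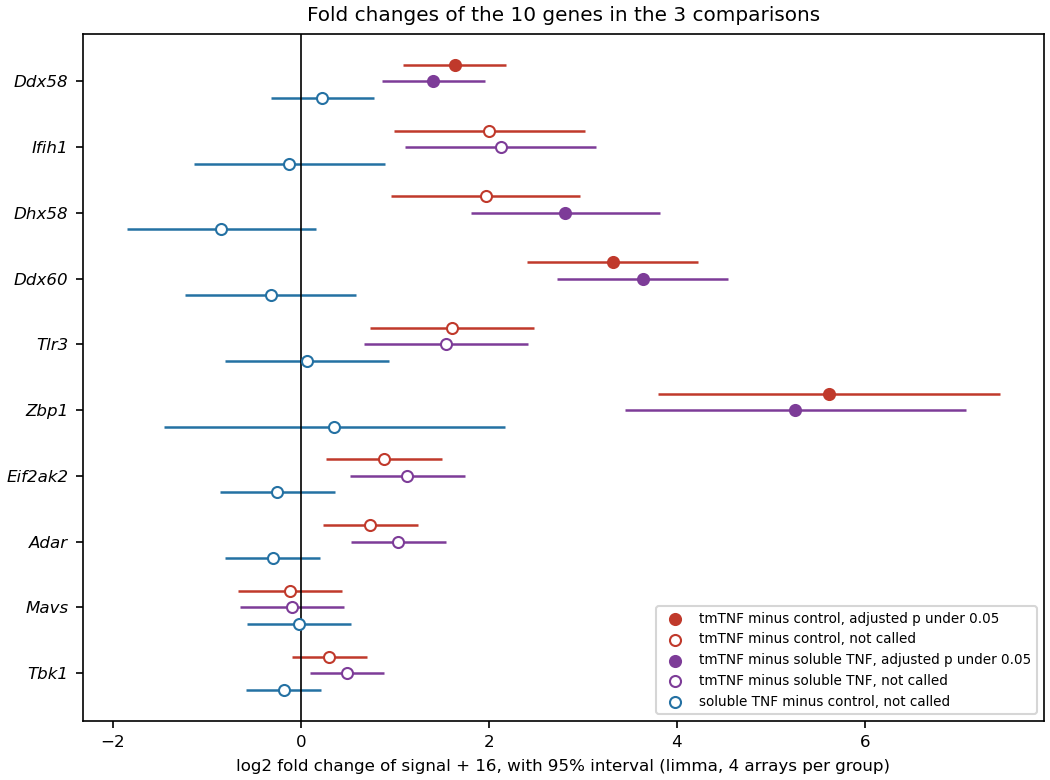
Log2 fold change of signal + 16 for the 10 genes in 3 comparisons, with 95% intervals from limma (4 arrays per group). Filled points passed an adjusted p of 0.05. The values of Ddx60, Zbp1 and Ddx58 are filled in both comparisons of tmTNF, that of Dhx58 is filled for tmTNF minus soluble TNF, and every soluble TNF minus control value is open.

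**Figure D3:**
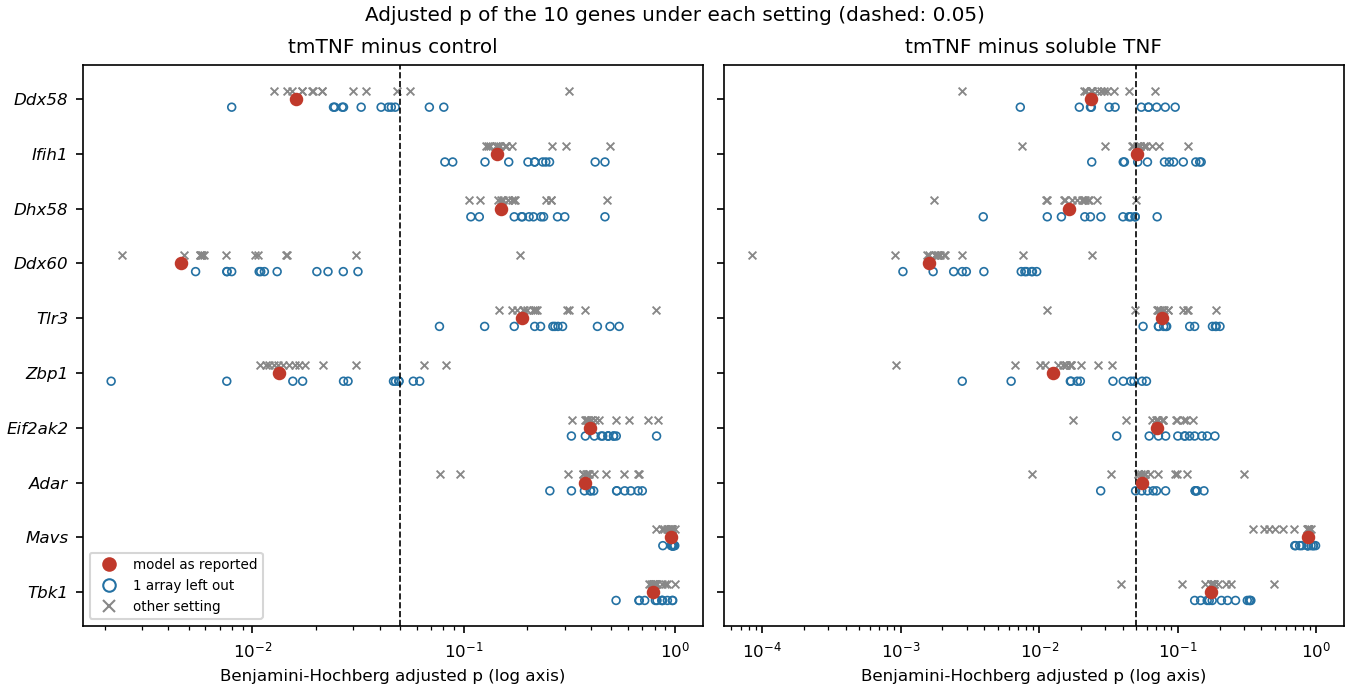
Adjusted p (log axis) of the 10 genes for tmTNF minus control (left) and tmTNF minus soluble TNF (right), in the model as reported (red), with 1 array left out (blue circles) and under other settings (grey crosses). Ddx60 stays under 0.05 in all circles of both panels, and Mavs stays above it in every setting shown.

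Without the 3 arrays of lowest endothelial score the sizes for tmTNF minus control were a log2 of 5.30 for Zbp1, 3.30 for Ddx60 and 1.47 for Ddx58, and none of the 10 genes passed (adjusted p = 0.0828, 0.185 and 0.313). That comparison sets 2 tmTNF arrays against 3 control arrays and called 4 genes in all. For tmTNF minus soluble TNF Ddx60, Dhx58 and Zbp1 passed without those arrays (adjusted p = 0.0240, 0.0495 and 0.0334), and Ddx58 did not (0.0681). Of all 10269 genes 111 rose in that fit. This alternative was chosen after seeing the data.

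Within groups the arrays differed. The mean z-score of the 10 genes was 0.84, 0.99, 0.71 and 1.47 on tmTNF replicates 1 to 4, -0.49, -1.02, -0.18 and -0.73 on the soluble TNF replicates and -0.998, -0.04, -0.12 and -0.43 on the controls. Replicate 4 of tmTNF was the highest of its group for 7 of the 10 genes and replicate 2 the lowest for 5. The endothelial marker sums of replicates 4 and 2 were alike, 19990 and 21083, against 106476 and 95221 on replicates 1 and 3. Replicate 3 of soluble TNF was the highest of its group for 8 of the 10, and replicates 2 and 4 were the lowest for 5 and 4. The endothelial sums of replicates 3, 2 and 4 were 58501, 46574.5 and 30926, and their fibroblast sums were 168.7, 209.7 and 7665. Control replicate 3 was the highest of its group for 5 of the 10 and had the lowest endothelial sum of its group (12494). Control replicate 1 was the lowest for 6, with an endothelial sum of 63834 and a leukocyte marker sum of 18696. Whether these marker differences have a part in the order within groups was not tested.

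The other probe sets gave the same direction for tmTNF. Of the 23 probe sets 21 were in a fit over all kept probe sets, and all 11 that were not the reported one had the sign of the reported one in both tmTNF comparisons. In the signals, 17 of 23 probe sets had all tmTNF arrays above all control arrays and 18 had them above all soluble TNF arrays, against 2.18% and 5.62% of the 45037 probe sets that are no controls. Probe sets of 1 gene read the same RNA samples and are no independent support. For Zbp1 the other probe set stayed under 100 on all soluble TNF and control arrays and was at least 11.7-fold higher in tmTNF than in either, taking 100 as the level of the dimmer group. The other Ddx60 probe set, also under 100 outside tmTNF, was at least 1.91-fold higher. Both, and 1 further Adar probe set, entered the fit only through tmTNF arrays and so had to be higher there, which leaves 8 of the 11 whose sign the filter did not favour. Of these, 1 Dhx58 probe set passed against soluble TNF (log2 2.24 ± 0.46, adjusted p = 0.0419). The fitted other probe set of Ddx58 did not pass against control (1.14 ± 0.26, adjusted p = 0.161) or against soluble TNF (1.12 ± 0.26, adjusted p = 0.0636).

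For soluble TNF minus control 5 of the 11 other probe sets had the sign of the reported one, and 0 passed. Signs differed within Adar, Eif2ak2, Zbp1 and Mavs. The probe sets of Adar are given here. The reported probe set had a log2 difference of -0.30, while a second Adar probe set gave 501.1, 456.6, 594.4 and 595.3 under soluble TNF, all above its highest control signal of 351.4, with a log2 difference of 1.15 ± 0.38 that did not pass (adjusted p = 0.276). That probe set was at 573.5, 826.7, 788.7 and 1879.7 in tmTNF cells (1.92 ± 0.38 against control, adjusted p = 0.0826), and it was the 1 probe set of the 23 with all soluble TNF arrays above all controls. The remaining Adar probe set gave 0.02 ± 0.36 for soluble TNF minus control. Which Adar transcripts each probe set reads is not given in the sources used here.

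**Figure D4:**
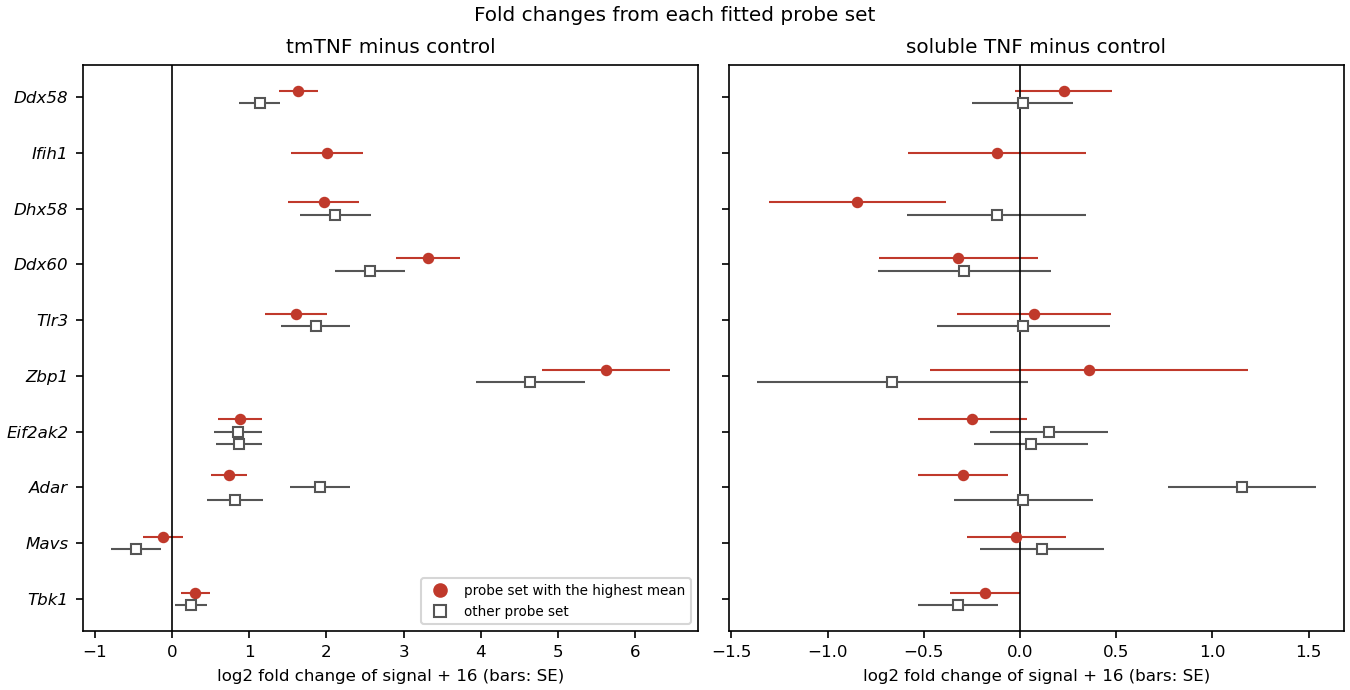
Log2 fold change of signal + 16 (bars are SE) from each of the 21 fitted probe sets, for tmTNF minus control (left) and soluble TNF minus control (right), with the reported probe set in red and the others as open squares. On the left the probe sets of each gene lie on the same side of 0, and on the right 1 Adar square lies at 1.15 while the reported Adar probe set lies at -0.30.

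The genes around these sensors were examined through 6 lists of partners and relatives, of 86 measured genes in all. None of the 86 passed for tmTNF minus control in limma, where 6 were higher and 5 lower at an unadjusted p under 0.05 (4.81% and 2.75% of all genes), and none for soluble TNF minus control, where 7 were higher and 9 lower at that level (5.4% and 7.28% of all genes). For tmTNF minus soluble TNF 4 passed: Irf7 and Mndal rose, and Banf1 and Rnaseh2b fell (0.954% and 0.263% of all genes). The median log2 difference of the 86 was 0.14, 0.03 and 0.12 in these 3 comparisons, against 0.03, -0.05 and 0.08 over all genes.

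In the RIG-I-like receptor list (29 measured) 1 gene passed, Irf7, the factor that amplifies interferon-alpha genes. Irf7 had signals of 8363.9, 6098.9, 4254.8 and 12081.2 in tmTNF cells, 769.8, 113.1, 419.5 and 580.9 under soluble TNF and 395.5, 714.4, 1637.1 and 893.1 in control, with every tmTNF array above all others. Its log2 difference was 4.15 ± 0.57 for tmTNF minus soluble TNF (adjusted p = 0.00488) and 3.13 ± 0.57 for tmTNF minus control, which did not pass (adjusted p = 0.0562). Irf7 passed against control in a model of those 2 groups alone, without control replicate 3 and without soluble TNF replicate 2.

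Irf3, which is present without induction, had a log2 difference of -0.20 ± 0.28 in tmTNF cells against control and 0.05 ± 0.28 against soluble TNF. Trim25, the ubiquitin ligase that activates Ddx58, was at 1.04 ± 0.23 for tmTNF minus soluble TNF (adjusted p = 0.0534) and 0.53 ± 0.23 for tmTNF minus control (adjusted p = 0.633). Ikbke, the kinase related to Tbk1, read 282.8, 315.0, 427.4 and 498.6 under soluble TNF, above 94.8, 195.9, 226.8 and 205.7 in control (log2 1.04 ± 0.39, adjusted p = 0.327), and it read 331.6, 209.8, 647.7 and 181.0 in tmTNF cells. Ikbke was thus separated from control under soluble TNF and not in tmTNF cells, and passed in neither; its log2 difference for tmTNF minus soluble TNF was -0.28 ± 0.39.

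In the endosomal receptor list (11 measured) none passed in any comparison in limma. At an unadjusted p under 0.05, 1 was higher for tmTNF minus control (4.81% of all genes), 3 were lower for soluble TNF minus control (7.28%) and 3 were higher for tmTNF minus soluble TNF (12.4%). Ticam1, the adaptor of Tlr3, was at -0.16 ± 0.43 for tmTNF minus control, and Unc93b1, which carries these receptors to endosomes, at -0.45 ± 0.26. For soluble TNF minus control Ticam1 was at -0.56 ± 0.43 and Unc93b1 at -0.55 ± 0.26.

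In the DNA-sensing list (16 measured) 3 passed for tmTNF minus soluble TNF. Mndal, a DNA-binding protein of the Ifi200 family, was higher (2.06 ± 0.42, adjusted p = 0.0395), with signals of 5742.9 to 15267 in tmTNF cells against 1711.5 to 2461.0 under soluble TNF; genes of this family are near-identical, so its probe set may read relatives. Banf1, which coats DNA and limits its sensing, was lower (-0.94 ± 0.19, adjusted p = 0.0395), and so was Rnaseh2b, a subunit of the nuclease that removes RNA from DNA (-1.21 ± 0.25, adjusted p = 0.0430). Banf1 signals were 5557.4 to 9475.6 in tmTNF cells against 12613.6 to 16067.9 under soluble TNF, and those of Rnaseh2b were 583.6 to 967.7 against 1333.7 to 1787.6. The calls of Mndal and Banf1 were lost on leaving out any 1 tmTNF replicate of 2, 3 and 4 or any 1 soluble TNF replicate, and that of Rnaseh2b on leaving out any of these but tmTNF replicate 4. Cgas, the DNA receptor, and Sting1, its adaptor, did not pass, with log2 differences of 0.41 ± 0.42 and 0.29 ± 0.36 in tmTNF cells against control, and 0.10 ± 0.42 and 0.71 ± 0.36 against soluble TNF.

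In the list of Zbp1 death partners (6 measured) none passed in limma in any comparison. Ripk3, the kinase that Zbp1 engages, was high or near nothing from array to array in every group: 8.1, 1911.7, 1476.3 and 3024.6 in tmTNF cells, 27.1, 2640.9, 2778.4 and 34.0 under soluble TNF and 12763.5, 1059.7, 16.9 and 15.5 in control. Its log2 difference of 0.97 ± 2.23 for tmTNF minus control therefore has a very wide error. Mlkl, which Ripk3 activates to break the plasma membrane, was measured on all 12 arrays and was at 0.30 ± 0.35 for tmTNF minus control.

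Of the eIF2alpha list (17 measured) and the relatives of Adar (8 measured) none passed in limma in any comparison. For tmTNF minus soluble TNF 5 genes of the eIF2alpha list were higher and 2 lower at an unadjusted p under 0.05, and 2 relatives of Adar were lower (12.4% of all genes were higher and 7.49% lower at that level). Eif2s1, the substrate of Eif2ak2, was not analysed here. Of 18 listed interferon ligand genes 10 had a probe set, and none reached a signal of 100 on any array. Ifnb1, the interferon that these sensors induce, was listed at 67.4, 66.9, 35.0 and 88.8 in tmTNF cells, 39.2, 35.8, 26.0 and 62.5 under soluble TNF and 47.3, 67.0, 7.1 and 58.8 in control, so no difference in Ifnb1 could be measured.

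**Figure D5:**
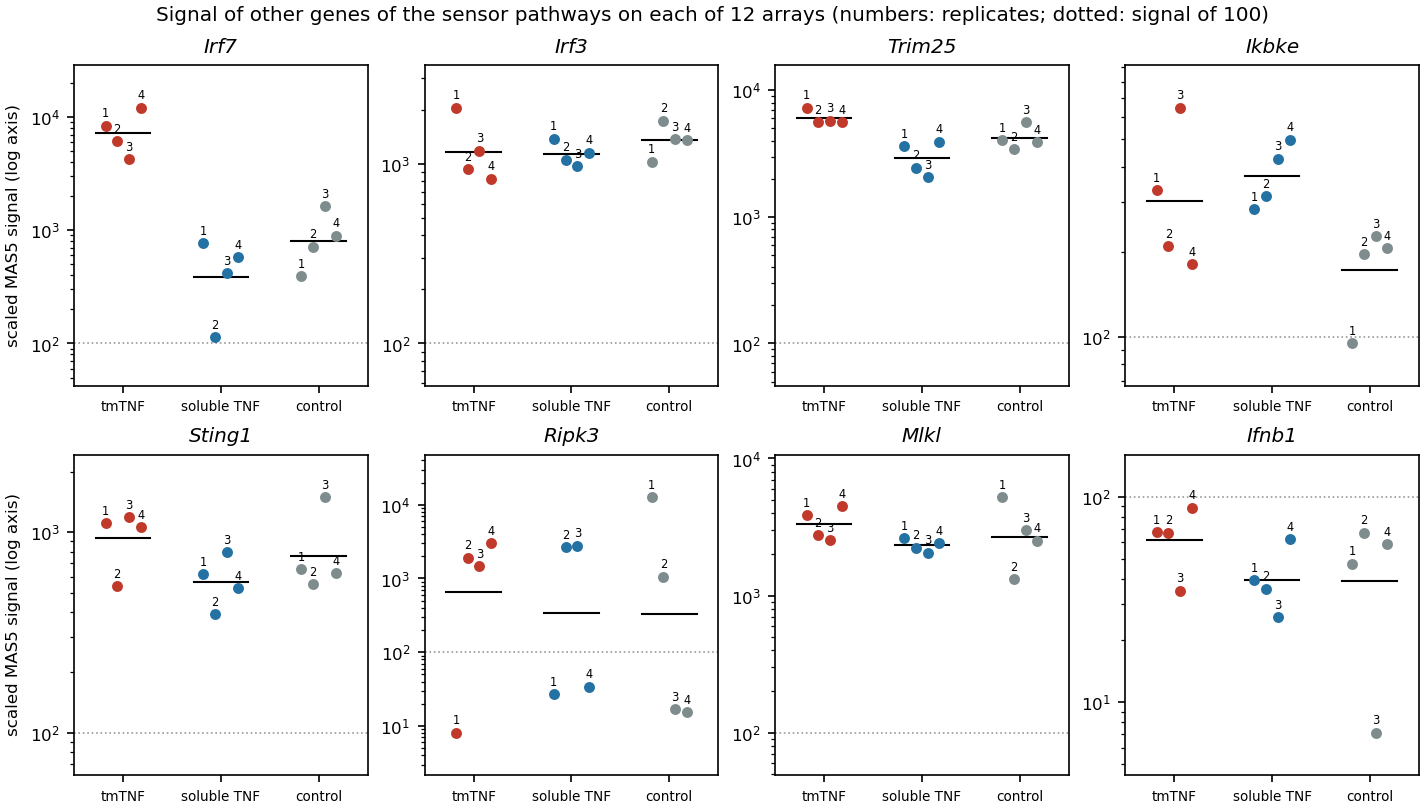
Scaled MAS5 signal (log axis, separate for each panel) of 8 other genes of the sensor pathways on 4 tmTNF, 4 soluble TNF and 4 control arrays, with replicate numbers, group means on the log2(signal + 16) scale as bars and a signal of 100 as a dotted line. All tmTNF points of Irf7 lie above the other points, Ripk3 splits into high and low arrays in every group, and every Ifnb1 point lies below 100.

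Genes whose pattern over the 12 arrays was most like that of the 10 were ranked by the root mean square difference of z-scores from the mean of the 10. The 6 closest were Igtp (0.28), an interferon-inducible GTPase, Stat2 (0.29), a subunit of ISGF3, Phf11d (0.30), Trafd1 (0.31), a regulator of innate signalling, Parp12 (0.31), an ADP-ribosyltransferase, and Gm9706 (0.31), against a median of 1.21 over the other 10259 genes. Ddx60 was the closest of the 10 to their own mean (0.24), while Tbk1 (0.58) and Mavs (1.24) were the farthest, Mavs being about as far as the median gene. Each of the 10 is part of that mean, which brings it nearer. Their values are thus not on the same footing as those of the other genes.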

How the data were processed

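Per the submitters' processing notes, MAS5 produced the signal intensities that the authors deposited. They are linear values, 1 per probe set and array, with a 2% trimmed mean of 1000 on every array. No MAS5 setting or genome build is given in the sources used here. Here every array was brought to a trimmed mean of 500, computed without the 64 control probe sets. Values were then analysed as log2(signal + 16), which understates changes of dim genes. Probe sets with at least 4 arrays at 100 were kept, 1 per gene by highest mean, leaving 10269 genes. Symbols came from the platform annotation (34945 probe sets with 1 symbol, 932 with several, 9160 with none). The RefSeq table (GRCm38.p6) held 34754 of the identifiers and changed 0 symbols.

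The 3 groups of 4 arrays entered 1 limma model (version 3.58.1, R 4.3.3, lmFit, then eBayes with its trend option). Tests were two-sided, and p-values were adjusted by Benjamini-Hochberg over all 10269 genes (threshold 0.05). Adjusted p-values come from this fit, and those of further probe sets from a fit over 18022 kept probe sets. Values after ± are SE unless named SD. The number of arrays limits the precision. The script was tested on simulated data with independent normal noise. Such data hold no differences shared by the genes of an array, so the test checks the code and not the calls.

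The genes, lists, motifs and tests were chosen with earlier results of these data known. Named genes are the 10, list members called in any comparison, Trim25, Ikbke, Irf3, Irf7, Ticam1, Unc93b1, Cgas, Sting1, Ripk3, Mlkl, Eif2s1, Ifnb1, Tnf and the 6 genes of most similar pattern. Alternatives were other scalings, a pseudocount of 1 or 64, a signal filter of 250 or none, other merging of probe sets, only the 2 groups compared, other eBayes settings, array weights and each array left out.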

Additional observations from a re-analysis of the deposited data

Results flagged for a closer look

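In 30 groups of 4 arrays (10 genes in 3 groups), 2 had 1 array far from the other 3 by Dixon's criterion for 4 values, and chance gives about 1 in 20 groups. Both were soluble TNF replicate 3. Ddx58 read 2662.5 there against 1310.0 to 1459.6 on the other soluble TNF arrays (ratio 0.848). Tbk1 read 3259.0 there against 2399.2 to 2437.3 on the others (ratio 0.949). Without that array the log2 difference of Ddx58 for soluble TNF minus control was -0.0041, against 0.23 with it.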

How the results depend on the processing

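Of the log2 fold changes of the 10 genes recomputed under the alternatives, 745 kept direction and side of the threshold, 21 lost and 17 gained a call, and 30 changed sign, all of them for values that were not called. The number of the 10 genes called for tmTNF minus control was 3. It was 1 to 3 with 1 array left out and 0 without the 3 arrays of lowest endothelial score, where fewer samples were compared. For tmTNF minus soluble TNF it was 4, and became 8 with only those groups fitted, 9 with array weights, and 1 to 7 with 1 array left out. The other pathway genes called were 0 to 1 with 1 array left out and 1 with only the 2 groups for tmTNF minus control, and 1 to 5 and 9 for tmTNF minus soluble TNF. In that comparison all genes called numbered 125 (98 higher, 27 lower), 439 with only the 2 groups, 1176 with array weights, and 239 (67 higher, 172 lower) with arrays scaled to the same median, which moved the median of all genes to -0.15, against 0.08. They numbered 28 without soluble TNF replicate 2 and 233 without control replicate 1. For tmTNF minus control they numbered 20, 66 without tmTNF replicate 1 and 4 without the 3 arrays. For soluble TNF minus control they numbered 4, 22 without control replicate 4, and 0 without soluble TNF replicate 1 or 3. The cause was not tested.

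Sign changes for soluble TNF minus control were as follows. Mavs was at 0.066 with the same median, 0.040 with quantile scaling, 0.048 with the mean of probe sets, 0.11 with the most variable or the other probe set, 0.16 with array weights, 0.044 without the 3 arrays, and -0.16 to 0.11 with 1 array left out. Tlr3 was at -0.24 with array weights, -0.13 without the 3 arrays and -0.17 to 0.40 with 1 left out. Ifih1 was at 0.18 without the 3 arrays and -0.51 to 0.18 with 1 left out, and Ddx58 at -0.0041 to 0.33. Adar was at 0.29 with the mean of probe sets, 1.15 with the most variable one and 0.017 with the remaining one. Zbp1 was at -0.15 with the mean and -0.66 with the other probe set, and Eif2ak2 at 0.15 and 0.055 with its other probe sets. With 1 array left out Mavs in tmTNF cells was at -0.25 to 0.052 against control and -0.23 to 0.072 against soluble TNF. No paired analysis was possible because the labels give no replicate numbers, and those used here follow accession order. Signals under 100, as in Zbp1 and Ddx60 outside tmTNF, limit how well a fold size is known.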
